A study of Mus musculus with 24 samples.

Results

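Cellular iron handling was followed through 8 genes in undifferentiated mouse embryonic stem cells whose huntingtin gene (Htt) had either been removed or carried a lengthened run of CAG repeats. The genes were Tfrc, Slc11a2, Slc40a1, Fth1, Ftl1, Aco1, Ireb2 and Slc25a37. They were chosen by name, and every probe set that the platform annotation gives to 1 of them alone was taken. That rule found 19 of the 45101 probe sets on the array, for 7 of the 8 genes. Tfrc had 6 of them, Slc11a2 had 4, Aco1 had 3, Slc40a1 and Fth1 had 2 each, and Ireb2 and Slc25a37 had 1 each. A further 4 probe sets of the 8 genes are annotated to several genes and were not used. Since 3 of those 4 are the ones that list Ftl1, beside the pseudogene Ftl1-ps2, the ferritin light chain has no value here.

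The series holds 24 Affymetrix arrays of the Mouse Genome 430 2.0 type in 6 groups, all from 129/Sv embryonic stem cells. Control cells (6 arrays) have 7 CAG repeats on both Htt alleles, and knock-out cells (6 arrays) are null for Htt. The 4 knock-in lines have 7 repeats on 1 allele and a longer run on the other: 16 in Q20, 45 in Q50 (43 for replicate 3), 85 in Q91 and 111 in Q111, with 3 arrays each. The labels call the arrays of a group biological replicates without saying whether they are cultures, clones or passages, so p-values measure the spread between these arrays only, and a line cannot be told apart from its repeat length, nor the loss of Htt from the history of the null cells. For the control and knock-out arrays, the free-text description in the labels contradicts the titles and the genotype field, which were followed here. It describes the control cells as being without the huntingtin gene. Were control and knock-out exchanged, every difference between them given below would change sign.

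Cells import iron mainly as transferrin, which binds the transferrin receptor (Tfrc) at the surface and is taken into endosomes, from where the divalent metal transporter DMT1 (Slc11a2) carries iron into the cytosol. Iron that is not used is stored in ferritin, a shell of heavy (Fth1) and light (Ftl1) chains, enters mitochondria through mitoferrin (Slc25a37) for heme and iron-sulfur clusters, or leaves the cell through ferroportin (Slc40a1), the only known iron exporter of mammalian cells. The iron regulatory proteins Aco1 (IRP1) and Ireb2 (IRP2) bind stem-loops in these messengers when iron is scarce, which stabilises the Tfrc messenger and blocks translation of ferritin and ferroportin. Arrays measure messenger only, so that translational step is not seen in them.

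All values are the deposited log2 levels. A probe set was tested where it reached a log2 level of 5 on at least 3 of the 24 arrays, and 17980 did. Of the 19 probe sets of the iron genes, 13 were tested. Another 3 (all Tfrc) are control features of the array and were left out of the fit, and 3 stayed below the filter: 1417584_at (1.79 to 2.58 over the 24 arrays) and 1441709_at (2.22 to 2.71) of Slc11a2, and 1447080_at (2.61 to 3.23) of Aco1. Differences were tested with limma in 1 fit over all arrays, with Benjamini-Hochberg adjustment over all 17980 probe sets, and a probe set is called where its adjusted p is under 0.05. The 5 comparisons with control share the same 6 control arrays.

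The libraries were much alike within groups (Pearson correlations of 0.958 to 0.995), and no pair of arrays was identical. Array medians ran from 3.33 to 3.60. The Htt probe set 1425969_a_at averaged 8.01 in controls, 7.21 in the knock-out and 6.96 to 7.54 in the 4 lines, and was thus not at background in cells labelled null. No source used here says whether its probes lie in the removed part of the gene, so it checks the labels only in part. Q50 replicate 3 stood apart in the ratio of 3' to 5' signal, a common sign of RNA quality. Its 3' signal exceeded its 5' signal by 2.73 for Tfrc against 0.75 to 1.47 on the other 23 arrays, by 1.54 for Actb against 0.75 to 1.03, and by 0.24 for Gapdh against -0.06 to 0.13. The Q50 changes of the iron genes are therefore also given without it, while the Q50 values of markers and other genes include it. All 9 markers of naive embryonic stem cells were at a level of 5 or more in each group.

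In the knock-out, 3 of the 13 tested probe sets were higher than control in limma and 0 lower (4 in all at an unadjusted p under 0.05), and all 3 belong to Tfrc. Over all tested probe sets 7.42% were higher and 7.17% lower. The counts in the knock-in lines were 4 higher and 2 lower in Q20 (all probe sets: 16.2% and 9.00%), 3 higher and 3 lower in Q50 (5.70% and 2.30%), 2 higher and 0 lower in Q91 (12.7% and 9.49%; 2 in all at an unadjusted p under 0.05), and 4 higher and 1 lower in Q111 (16.2% and 9.49%). Centring each array on its median shifted the split over all probe sets towards lower values, to 12.3% and 15.7% in Q20, 3.74% and 4.03% in Q50, 10.3% and 13.5% in Q91, and 12.2% and 17.6% in Q111. Slc40a1 was called higher in all 4 lines on both of its probe sets, which had passed the filter only through those lines, and Fth1 supplied every lower call but 1, which was Slc25a37 in Q50. The median change of the 13 probe sets was 0.12 in the knock-out, 0.13 in Q20, -0.01 in Q50, 0.18 in Q91 and 0.10 in Q111, beside 0.00, 0.02, 0.04, 0.00 and 0.01 over all probe sets.

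**Figure D1:**
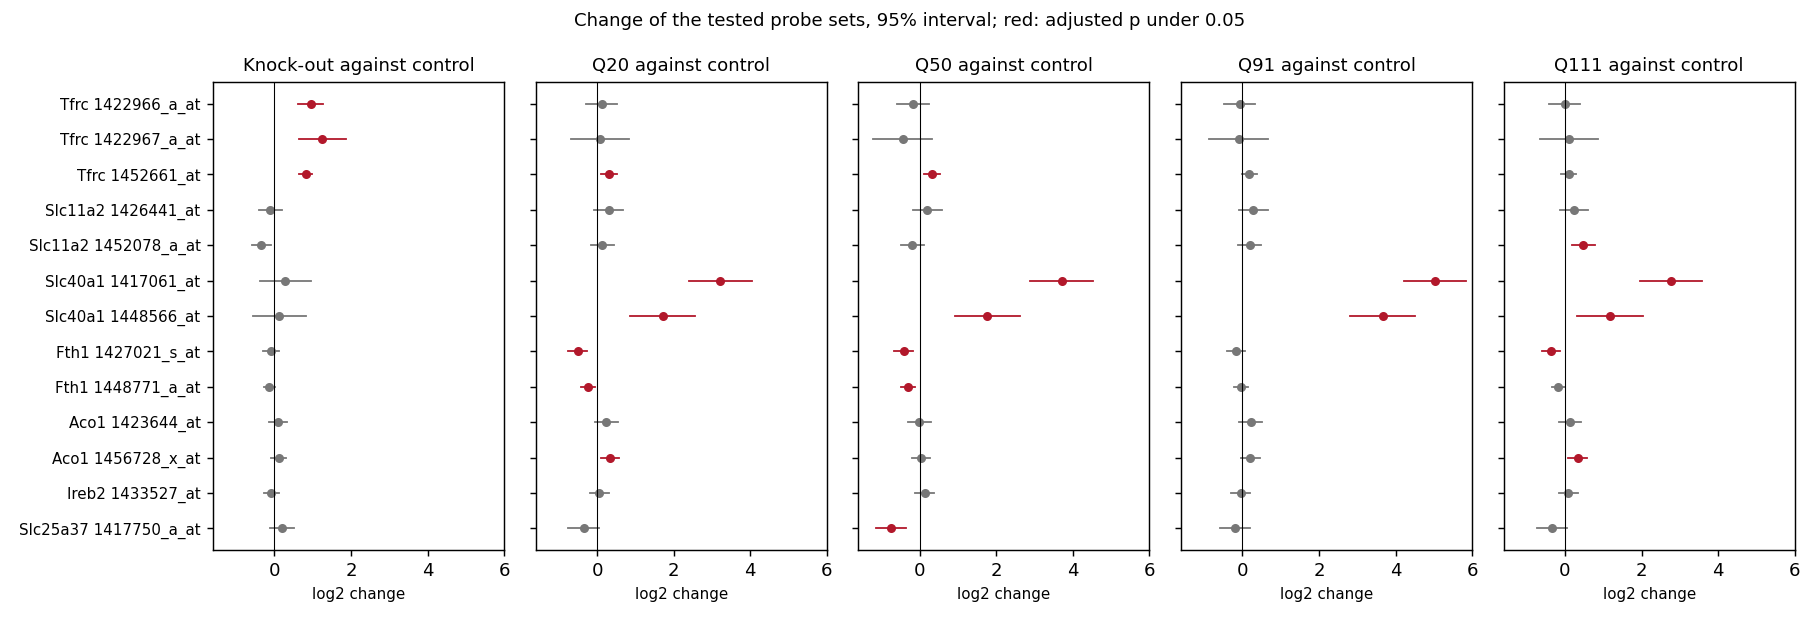
Log2 change of each tested probe set of the iron genes (rows) in the 5 comparisons with control (panels), with its 95% interval; red marks an adjusted p under 0.05 in limma. The 3 Tfrc probe sets carry every call in the knock-out panel, and the 2 Slc40a1 probe sets lie farthest to the right in the panels of the 4 lines, at up to 5.03 in Q91.

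Tfrc, the receptor that imports transferrin-bound iron, was higher in the knock-out on every probe set. On 1452661_at, the brightest, control arrays read 12.89 at the lowest, 13.05 at the median and 13.24 at the highest, and knock-out arrays 13.71, 13.88 and 14.02. The groups did not overlap. The difference in means, 13.06 ± 0.12 against 13.88 ± 0.10 (SD, n = 6 each), was 0.82 on the log2 scale (SE 0.08, 95% interval 0.65 to 0.98), or 1.76-fold, with an adjusted p of 1.54e-06 in limma. It kept its call under each of 21 alternative settings, at 0.69 to 0.94.

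A stretch near the Tfrc starts is shown because the calls in the knock-out were all of Tfrc probe sets. RefSeq promoter windows, which span 250 bases before to 50 after a gene's start, were found for 5 of the 8 genes: Tfrc, Fth1, Ftl1, Aco1 and Ireb2. The 90 bases below lie at chr16:32608872-32608961 on the plus strand (GRCm38.p6), 250 to 161 bases before the downstream of 2 Tfrc starts. The 2 Tfrc windows overlap (32608646 to 32608945 and 32608872 to 32609171). Both hold both motifs, but the marked letters lie in the part they share and are not separate matches. The other start lies inside the stretch, so not all of it is upstream of both starts. The first capitals mark ACGTG, the core of a hypoxia response element, and the second mark TGACGT, the core of a cyclic AMP response element. ACGTG lies across that other start and TGACGT lies downstream of it, so neither is wholly upstream of both starts.
Tfrc: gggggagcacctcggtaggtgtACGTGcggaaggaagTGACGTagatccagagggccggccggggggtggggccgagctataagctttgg
Both strands were searched. Of 32851 mouse windows of this length, 19.6% hold ACGTG and 7.51% hold TGACGT, and the windows of Fth1, Ftl1, Aco1 and Ireb2 hold neither. A match describes letters, and nothing here measures whether a factor binds them.

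The other Tfrc probe sets stood apart in the same way. On 1422966_a_at, control arrays ran from 10.29 through a median of 10.46 to 10.68 and knock-out arrays from 11.29 through 11.38 to 11.67, a difference of 0.95 (SE 0.16, 1.93-fold, adjusted p 6.19e-04). On 1422967_a_at, the ranges were 8.23 to 8.78 (median 8.52) and 9.56 to 10.36 (median 9.70), a difference of 1.25 (SE 0.30, 2.37-fold, adjusted p 0.00788). Again no knock-out array fell among the controls. The array also carries 3 control features for the Tfrc messenger, placed at its 3' end, middle and 5' end. There the knock-out exceeded control by 0.96 (9.82 to 10.79), 1.18 (8.46 to 9.64) and 1.06 (8.73 to 9.79), and each had a two-sided exact permutation p of 0.00216, also after adjustment over the 3 features, which is the smallest that 6 against 6 arrays can give. The excess was therefore present at both ends of the messenger, while absolute levels of different probe sets are not comparable.

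Splitting the arrays by replicate number, a division added after the values were seen, gave Tfrc differences of 0.69 (adjusted p 0.00393) for replicates 1 to 3 and 0.94 (4.17e-04) for replicates 4 to 6 on 1452661_at. The corresponding values were 0.85 (0.0785) and 1.04 (0.0316) on 1422966_a_at, and 1.08 (0.230) and 1.41 (0.104) on 1422967_a_at. The direction was the same in both sets of arrays, and 3 of these 6 tests missed the threshold. The other 299 tested genes on chromosome 16, where Tfrc lies, had a median change of -0.05 in the knock-out.

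In the knock-in lines the Tfrc signal stayed close to control. On 1452661_at, Q20 arrays read 13.34, 13.25 and 13.53, Q50 arrays 13.26, 13.36 and 13.53, Q91 arrays 13.15, 13.16 and 13.40, and Q111 arrays 13.23, 13.20 and 13.05. Every Q20 and Q50 array was above the highest control, Q91 and Q111 overlapped the controls, and no line array reached the lowest knock-out array. The change was 0.31 in Q20 (SE 0.10, adjusted p 0.0219) and 0.32 in Q50 (SE 0.10, adjusted p 0.0455), and was not called in Q91 (0.18, adjusted p 0.208) or Q111 (0.10, adjusted p 0.483). The Q20 call was lost without Q20 replicate 1 (0.33, adjusted p 0.0591) or 3 (0.24, adjusted p 0.131). The Q50 call was lost without any of control replicates 1, 2, 4, 5 and 6 or Q50 replicates 2 and 3 (0.25 to 0.33, adjusted p 0.0565 to 0.186), and median centring ended both.

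**Figure D2:**
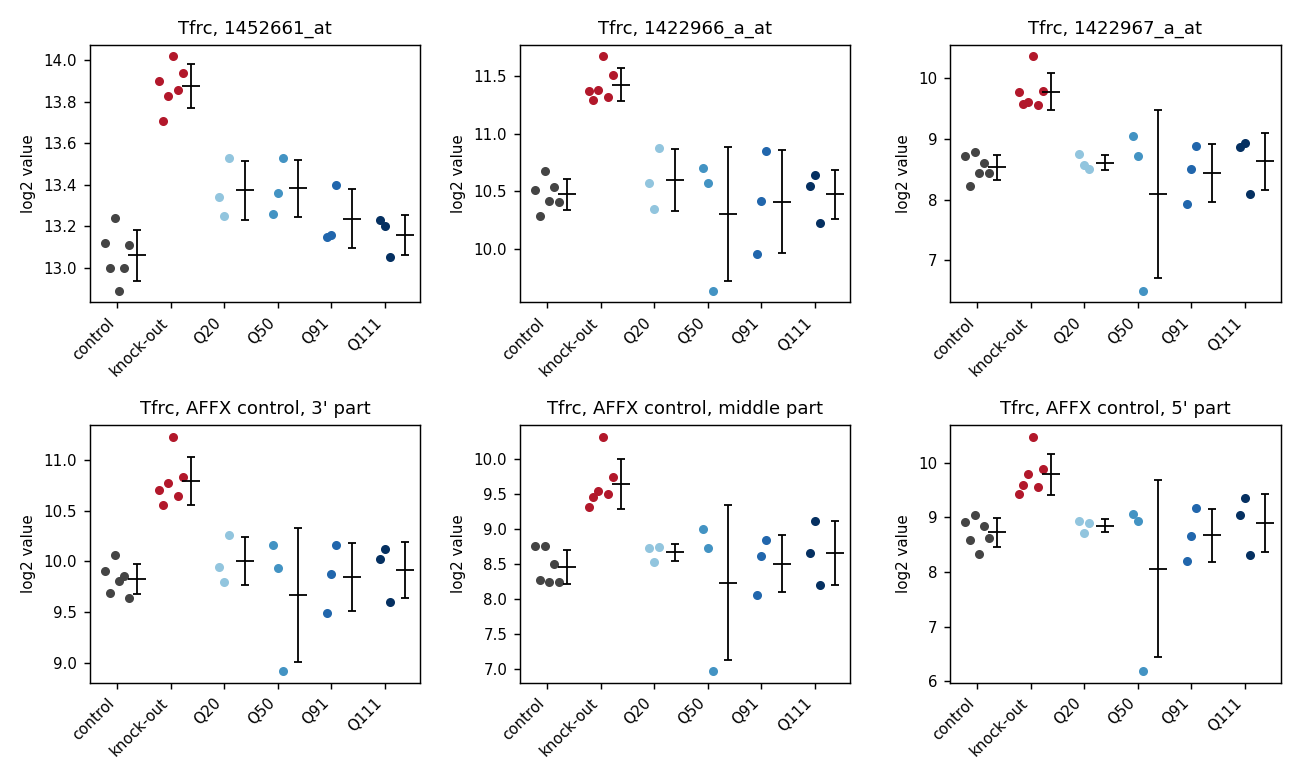
Log2 level of the 6 Tfrc probe sets (panels) by group; each point is an array and the offset bar is the group mean ± SD (n = 6 for control and knock-out, 3 for each line). The knock-out points lie above all control points in every panel, and Q50 replicate 3 is the lowest point on 1422967_a_at (6.50) and on the 5' control feature (6.19).

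The remaining Tfrc probe sets showed no call in any line. On 1422966_a_at the changes ranged from -0.17 in Q50 to 0.12 in Q20, with intervals that together span -0.58 to 0.53, so a change of the size seen in the knock-out (0.95) lies outside them. On 1422967_a_at they ranged from -0.44 in Q50 to 0.10 in Q111, with intervals from -1.21 to 0.84. Q50 depended on its replicate 3 here, which read 9.64 on 1422966_a_at beside 10.70 and 10.57, and 6.50 on 1422967_a_at beside 9.05 and 8.71. Without it the Q50 changes were 0.16 and 0.35, and 0.25 (adjusted p 0.186) on 1452661_at. By mean level on 1452661_at the groups ran, from low to high, control, Q111, Q91, Q20, Q50 and knock-out, and only the step from Q50 to the knock-out separated all arrays of neighbours.

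Slc11a2, the transporter that moves iron out of endosomes, was tested on 2 probe sets. On 1452078_a_at, control arrays ran from 7.58 through 7.95 to 8.07 and knock-out arrays from 7.23 through 7.53 to 7.87. Q20 read 7.87, 7.84 and 8.31, Q50 7.82, 7.76 and 7.48, and the Q91 arrays averaged 8.07 ± 0.09 (SD, n = 3), with 8.17 the highest. Q111 read 8.37, 8.18 and 8.51, above every control array.

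The Q111 change of 0.48 in Slc11a2 (SE 0.14, 1.40-fold) had an adjusted p of 0.0177. It was lost without Q111 replicate 1 (0.47, adjusted p 0.0646) or 3 (0.41, adjusted p 0.0849) and with median centring (0.36, adjusted p 0.0559). In the knock-out the value was -0.35 (SE 0.12) with an adjusted p of 0.0532, which misses the threshold and passes it in 7 of 21 alternatives, among them without control replicate 1 or 4 or knock-out replicate 3 (-0.41 to -0.39, adjusted p 0.0248 to 0.0380). The changes in Q20 (0.13), Q50 (-0.19, or -0.09 without replicate 3) and Q91 (0.19) were not called. On 1426441_at none of the 5 changes was called (-0.11 in the knock-out and 0.20 to 0.31 in the lines), the Q111 interval there was -0.13 to 0.61, and Q50 was at 0.31 without its replicate 3.

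Slc40a1, the iron exporter ferroportin, gave a signal above the filter level of 5 in the knock-in lines and none above it in control or knock-out cells. On 1417061_at, 11 of 12 knock-in arrays were at or above 5, and 0 of 6 control and 0 of 6 knock-out arrays were. Both Slc40a1 probe sets thus passed the filter only through the lines, which favours a difference from control and knock-out. A control level below 5 was also treated as not separable from background. The differences of both probe sets from control and from the knock-out therefore describe the deposited values and are no measure of a fold. On 1417061_at, control arrays read 2.37, 2.46 and 2.77 at the lowest, median and highest, and knock-out arrays 2.49, 2.80 and 3.00. Q20 read 5.61, 5.26 and 6.31, Q50 4.87, 6.25 and 7.56, Q91 6.47, 8.02 and 8.14, and Q111 5.17, 5.21 and 5.47. Every knock-in array thus lay above every control and knock-out array, and no Q91 array lay within the range of Q20 or Q111.

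On the deposited scale, the Slc40a1 change from control on 1417061_at was 3.22 in Q20 (SE 0.39, 95% interval 2.40 to 4.04, adjusted p 1.77e-05), 3.71 in Q50 (adjusted p 1.08e-04), 5.03 in Q91 (adjusted p 6.82e-08) and 2.77 in Q111 (adjusted p 4.86e-05). The knock-out value of 0.28 was not called (adjusted p 0.629). The spread in these tests was shared over all groups, whose SDs here ran from 0.15 in controls to 1.35 in Q50. The p-values and the interval therefore do not measure the spread of 1 line. The 4 line calls held under each of 18 alternatives, most of which kept a filter that this probe set passed only through the lines. The Q20 change then lay between 2.92 and 3.45, that of Q50 between 3.05 and 4.39, that of Q91 between 4.74 and 5.57, and that of Q111 between 2.65 and 2.89. Leaving out Q50 replicate 3, its highest array, gave 3.05 (adjusted p 1.63e-04). With no filter, where entry did not depend on the lines, the adjusted p-values were 6.51e-05 in Q20, 1.82e-04 in Q50, 5.60e-07 in Q91 and 1.94e-04 in Q111.

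Measured from the level of 5 alone, the line means on this probe set lay 0.72 (Q20), 1.22 (Q50), 2.54 (Q91) and 0.28 (Q111) above it. Q91 had the highest mean (7.54 ± 0.93, SD, n = 3). The order of the groups was control, knock-out, Q111, Q20, Q50 and Q91, in which neighbours overlapped except at the step from the knock-out to Q111.

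The second Slc40a1 probe set, 1448566_at, was dimmer. Controls ran from 3.00 through 3.23 to 3.50 and the knock-out from 3.08 through 3.28 to 3.86. Q20 read 4.72, 4.15 and 5.96, Q50 3.96, 5.16 and 5.91, Q91 5.61, 7.70 and 7.40, and Q111 4.74, 4.22 and 4.28. Again every line array was above every control array, but only 6 of the 12 reached 5. From that level the line means lay at -0.06 (Q20), 0.01 (Q50), 1.91 (Q91) and -0.59 (Q111), so on this probe set Q91 was the line clearly above it.

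The changes on 1448566_at were 1.71 in Q20 (adjusted p 0.00466), 1.77 in Q50 (0.0122), 3.67 in Q91 (3.74e-06) and 1.17 in Q111 (0.0396), with 0.12 in the knock-out (0.860). The Q91 call held in 17 of 17 alternatives, most of which kept a filter that this probe set passed only through the lines. Under the stricter filter (level 6) the probe set was not tested. The Q20 call was lost without Q20 replicate 3 (1.20, adjusted p 0.0505), and the Q50 call without Q50 replicate 2 or 3 (1.70 and 1.32, adjusted p 0.0515 to 0.0807). The Q111 call was lost without any of 5 control arrays (replicates 1, 2, 3, 4 and 6) or any Q111 array (1.01 to 1.27, adjusted p 0.0507 to 0.161). With no filter the adjusted p-values were 0.0134 in Q20, 0.0295 in Q50, 1.97e-05 in Q91 and 0.0917 in Q111, so the Q111 call was lost there too.

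**Figure D3:**
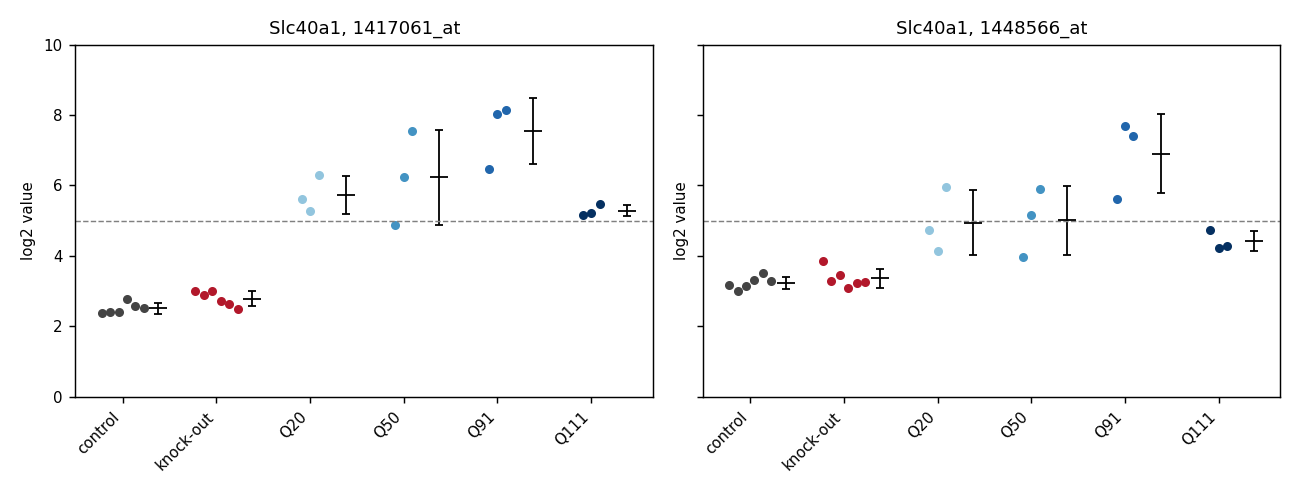
Log2 level of the 2 Slc40a1 probe sets by group; points are arrays, offset bars are group means ± SD, and the dashed line is the filter level of 5. All control and knock-out arrays lie below the line in both panels, and Q91 is the highest line, with a mean of 7.54 on 1417061_at.

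Markers of cell state differed in the same lines as Slc40a1. The list of 9 naive embryonic stem cell genes averaged 13.78 to 13.90 over the control arrays and 13.95 to 14.06 over the knock-out arrays, and every line array was lower: 13.05 to 13.44 (Q20), 13.34 to 13.71 (Q50), 12.95 to 13.24 (Q91) and 13.02 to 13.66 (Q111). Of its members, the naive pluripotency factors Tfcp2l1, Klf4 and Esrrb averaged 12.14, 12.75 and 12.21 in controls, and 10.18 to 11.09, 11.38 to 11.66 and 10.80 to 11.71 in the lines. Pou5f1, the factor Oct4, averaged 14.57 in controls and 14.47 to 14.74 in the lines. The list of 7 primed epiblast genes averaged 6.70 to 7.41 over the control arrays and 6.17 to 6.90 over the knock-out arrays, but the Q20 arrays gave 9.38 to 9.69, the Q50 arrays 8.05 to 9.74, the Q91 arrays 9.46 to 10.08 and the Q111 arrays 9.84 to 10.23. Its members were unequal. Krt18 and Cldn6 averaged 8.27 and 5.19 in controls, and 10.75 to 13.13 and 8.92 to 9.91 in the lines. Fgf5 averaged 2.08 in controls, 4.63 in Q20, 2.96 in Q50, 3.87 in Q91 and 5.58 in Q111. The list of 11 fibroblast genes, which would mark feeder cells, had 2 members at a mean level of 5 or more in controls, 1 in the knock-out, 4 in Q20, 3 in Q50, 5 in Q91 and 6 in Q111. Its array means were 4.08 to 4.50 in controls, 3.69 to 4.06 in the knock-out, then 5.30 to 6.25 for Q20, 4.59 to 5.30 for Q50, 5.60 to 6.52 for Q91 and 5.92 to 6.20 for Q111. Its members differed among themselves. Thy1 was lower outside the controls, averaging 5.97 in controls, 3.30 in the knock-out and 4.29 to 5.34 in the lines. Tagln, an actin-binding protein of contractile cells, averaged 4.69 in controls and 9.89 to 12.56 in the lines, Thbs1, a matrix glycoprotein, 3.20 and 7.37 to 10.67, and the collagen gene Col1a1 3.73 and 4.02 to 8.40, while the matrix genes Dcn, Lum and Postn stayed below 3 in every group.

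The trophoblast list had 3 or 4 of 8 members at 5 or more in each group, with array means of 4.66 to 4.85 in controls and up to 6.10 in Q91. The primitive endoderm list had 2 of 8 in each group, and Gata4 and Sox17, which define that lineage, stayed below 3 in every group, while the basement membrane collagen Col4a1 averaged 8.27 in controls and 9.55 to 9.93 in the lines. No erythroid or haematopoietic marker of the 9 on the array averaged 5 in any group, and the list read 2.47 to 2.85. The part of these differences in the Slc40a1 result was not tested, and in bulk RNA fewer cells of a type cannot be told apart from less RNA per cell. On chromosome 1, where Slc40a1 lies, the other 525 tested genes had medians of -0.43 in Q20, -0.21 in Q50, -0.23 in Q91 and -0.26 in Q111 against control. The part of this shift in the Slc40a1 values was not tested.

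By Pearson correlation over the 24 arrays, the genes most like Slc40a1 were Cebpd (0.938), Lpar6 (0.934), Skil (0.917), Epcam (0.914) and Fgfbp1 (0.911). Mean Cebpd levels, for a C/EBP transcription factor, were 3.21 in controls, 3.14 in the knock-out, 4.89 in Q20, 4.90 in Q50, 6.13 in Q91 and 5.03 in Q111. Lpar6, a lysophosphatidic acid receptor, had means of 5.17, 5.77, 7.83, 7.59, 9.10 and 7.66 in the same order. Both had higher means in the 4 lines than in controls and their highest in Q91. Lpar6 lies on chromosome 14, whose shifts against control are described below for Slc25a37. The arrays share their group structure, so these correlations are descriptions. Those most like Tfrc were Ccdc18 (0.899), Osgep (0.888), Pspc1 (0.880), Oip5os1 (0.873) and Zmym2 (0.872), of which Osgep, Pspc1 and Zmym2 lie on chromosome 14, a chromosome whose genes ran high in the knock-out as described for Slc25a37.

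Fth1, the ferritin heavy chain, was among the brightest signals and was lower in Q20 and Q50 on both of its probe sets. On 1427021_s_at, controls ran from 13.10 through 13.30 to 13.40 and the knock-out from 12.92 through 13.20 to 13.48. Q20 read 12.64, 12.59 and 13.06, Q50 12.86, 12.77 and 12.93, Q91 12.99, 13.12 and 13.20, and Q111 12.92, 12.94 and 12.89. All Q20, Q50 and Q111 arrays were below the lowest control, while Q91 and the knock-out overlapped the controls.

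On this probe set the Fth1 change was -0.51 in Q20 (SE 0.12, 70.2% of control, adjusted p 0.00302). It was -0.42 in Q50 (74.5% of control, adjusted p 0.0286) and -0.36 in Q111 (78.1% of control, adjusted p 0.0272). The values in Q91 (-0.17, adjusted p 0.331) and the knock-out (-0.09, adjusted p 0.587) were not called. The Q20 call held in 18 of 18 alternatives. The Q50 change was -0.46 (adjusted p 0.0449) without its replicate 3, and its call was lost without control replicate 2 or 5 or Q50 replicate 2 (-0.41 to -0.38, adjusted p 0.0505 to 0.108), and the Q111 call without any single Q111 array (-0.37 to -0.34, adjusted p 0.0682 to 0.0790). Probe sets of the _s_at kind can match transcripts of more than 1 gene, and Fth1 has many processed pseudogenes.

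On 1448771_a_at the Fth1 differences were smaller. Control arrays ran from 14.40 through 14.53 to 14.59 and knock-out arrays from 14.26 through 14.32 to 14.55. Q20 read 14.14, 14.18 and 14.47, Q50 14.24, 14.14 and 14.23, Q91 14.43, 14.51 and 14.50, and Q111 14.30, 14.41 and 14.32. Q50 was below all controls, and the other groups overlapped them.

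The Fth1 changes on 1448771_a_at were -0.24 in Q20 (SE 0.09, 84.5% of control, adjusted p 0.0428) and -0.31 in Q50 (SE 0.09, 80.9%, adjusted p 0.0331). Those in Q91 (-0.03), Q111 (-0.17) and the knock-out (-0.14) were not called. Each of the 2 calls was lost in 10 of 18 alternatives, among them without control replicate 1, 2, 5 or 6, without Q20 replicate 1 or 2 for Q20 (-0.24 to -0.18, adjusted p 0.0606 to 0.228), and without Q50 replicate 2 or 3 for Q50 (-0.32 to -0.28, adjusted p 0.0520 to 0.118).

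Of the iron regulatory proteins, Ireb2 showed no call in any comparison. Its 24 arrays lay between 10.60 and 11.20. The changes were -0.08 in the knock-out (95% interval -0.28 to 0.13), 0.06 in Q20 (interval -0.19 to 0.30), 0.13 in Q50 (interval -0.12 to 0.38), -0.04 in Q91 (interval -0.29 to 0.21) and 0.09 in Q111 (interval -0.16 to 0.34), so larger differences than 0.38 in either direction lie outside these intervals. Without its replicate 3, Q50 was at 0.09.

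Aco1, which is cytosolic aconitase when it carries its iron-sulfur cluster and an RNA-binding regulator when it does not, was called on 1 of its 2 tested probe sets. On 1456728_x_at, controls ran from 10.86 through 11.14 to 11.47 and the knock-out from 11.14 through 11.26 to 11.51, while Q20 read 11.51, 11.53 and 11.44 and Q111 11.45, 11.49 and 11.51. Both lines overlapped the highest control array. The changes were 0.34 in Q20 (adjusted p 0.0398) and 0.33 in Q111 (adjusted p 0.0455), and each call held in 5 of 18 alternatives. The Q50 change of 0.03 (adjusted p 0.897), or -0.09 without its replicate 3, was not called.

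The Q20 call of Aco1 was lost without any of control replicates 1 to 4 or any Q20 array (0.28 to 0.36, adjusted p 0.0568 to 0.120), and the Q111 call likewise (0.27 to 0.34, adjusted p 0.0648 to 0.114). On 1423644_at, with controls from 8.41 to 9.06, no change was called: 0.09 in the knock-out, 0.24 in Q20 (95% interval -0.05 to 0.54), -0.01 in Q50 (-0.10 without its replicate 3), 0.22 in Q91 and 0.14 in Q111. Probe sets of the _x_at kind hold probes that may match other transcripts.

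Slc25a37, the mitoferrin that brings iron into mitochondria and is best known from red cell precursors, was lower than control in Q50 only, by the single-line tests. Control arrays read 6.70, 6.65, 6.88, 6.01, 6.66 and 6.59, and knock-out arrays 6.46, 6.73, 6.90, 7.01, 6.87 and 6.74. Q20 read 6.17, 6.30 and 6.22, Q50 5.46, 6.33 and 5.73, Q91 5.91, 6.59 and 6.65, and Q111 6.24, 6.28 and 6.23. Control replicate 4 lay below the other 5 controls, and without it the Q20, Q50 and Q111 arrays would all be below the controls. Leaving it out of the fit still gave no call in Q20 or Q111. Of the alternatives, only quantile normalization called them (adjusted p 0.0320 in Q20 and 0.0315 in Q111 in limma).

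The Slc25a37 change was -0.74 in Q50 (SE 0.19, 95% interval -1.13 to -0.35, 59.9% of control, adjusted p 0.0207). The call was lost without Q50 replicate 1 (-0.55, adjusted p 0.0874) or Q50 replicate 3 (-0.69, adjusted p 0.0713). It was also lost with only the 2 groups in the fit and with replicates 4 to 6 of control and knock-out alone. The values in the knock-out (0.20, adjusted p 0.424), Q20 (-0.35, 0.182), Q91 (-0.20, 0.497) and Q111 (-0.33, 0.210) were not called. A test for any difference among the 4 lines gave an adjusted p of 0.531 for Slc25a37, so Q50 was not shown to differ from the other lines.

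Slc25a37 lies on chromosome 14, and the other 334 tested genes of that chromosome were shifted too. Their median change from control was 0.43 in the knock-out, -0.17 in Q20, -0.11 in Q50, -0.15 in Q91 and -0.21 in Q111. By array, the chromosome's median minus the control mean was -0.24 to 0.13 in controls, 0.32 to 0.54 in the knock-out, -0.19 to -0.14 for Q20, -0.17 to 0.00 for Q50, -0.20 to -0.14 for Q91 and -0.23 to -0.14 for Q111. The lowest control was replicate 4, at -0.24 for the chromosome and -0.57 for Slc25a37. The part of the chromosome's shift in the Slc25a37 values was not tested.

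**Figure D4:**
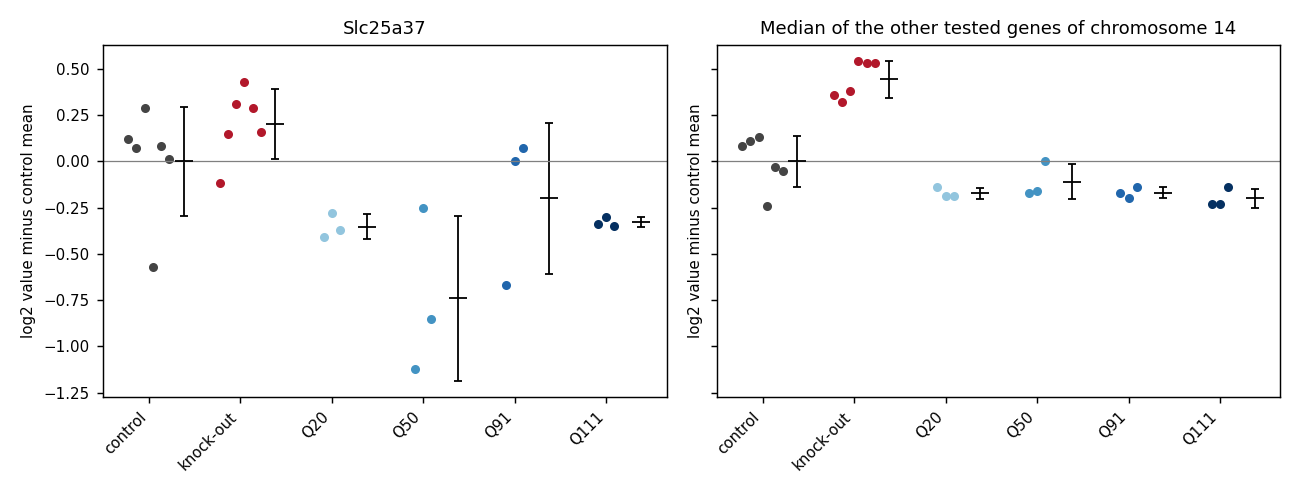
Slc25a37 (1417750_a_at) and the median of the 334 other tested chromosome 14 genes, each as log2 level minus its control mean, by array and group. The 6 knock-out arrays lie at 0.32 to 0.54 for the chromosome, above all control arrays (-0.24 to 0.13), while the knock-in arrays lie at 0.00 or lower.

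**Figure D5:**
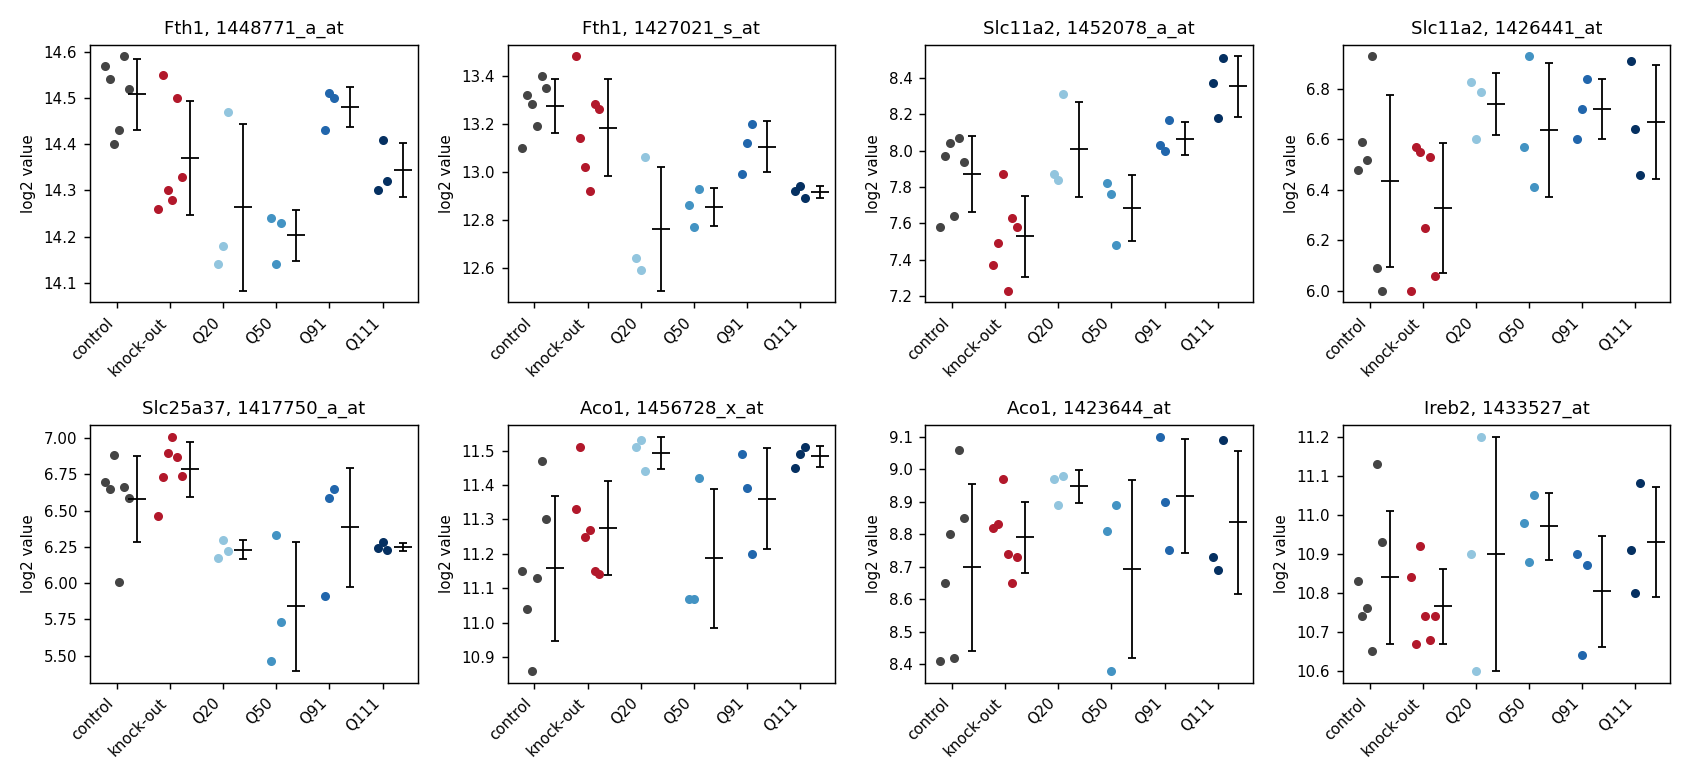
Log2 levels of the tested probe sets of Fth1, Slc11a2, Slc25a37, Aco1 and Ireb2 by group; points are arrays and offset bars are group means ± SD. The Fth1 panel for 1427021_s_at shows Q20, Q50 and Q111 below the control range of 13.10 to 13.40, and the Ireb2 panel shows 6 groups that overlap.

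A direct comparison of the knock-out with the mean of the 4 lines needs no control array, and it was added after the values had been seen. It called 5 of the 13 probe sets higher and 4 lower, where 20.1% and 26.6% of all probe sets were called (26.3% and 21.5% after median centring). The 5 higher were the 3 of Tfrc, Fth1 on 1427021_s_at and Slc25a37, and the 4 lower were those of Slc11a2 and Slc40a1. Tfrc was higher by 0.59 (SE 0.07, adjusted p 7.39e-07) on 1452661_at, 0.98 (9.19e-06) on 1422966_a_at and 1.34 (2.63e-04) on 1422967_a_at. On 1452661_at every knock-out array exceeded every line array. Without Q50 replicate 3 the Tfrc values were 0.61, 0.90 and 1.14, and those of Slc40a1 were -3.24 and -1.84, of Slc11a2 -0.53 and -0.40, of Slc25a37 0.60 and of Fth1 on 1427021_s_at 0.28, with all 9 calls kept.

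Slc40a1 was lower in the knock-out than in the lines, with a difference of -3.41 (SE 0.28, adjusted p 1.04e-08) on 1417061_at and -1.96 (adjusted p 1.46e-05) on 1448566_at, and its arrays did not overlap those of the lines on either. Here too both probe sets had entered only through the lines, and the knock-out level was below 5. Slc11a2 differed by -0.50 (SE 0.10, adjusted p 4.38e-04) on 1452078_a_at in 26 of 26 alternatives. On 1426441_at it differed by -0.37 (adjusted p 0.0223), a call that was lost without knock-out replicate 1 (-0.30, adjusted p 0.0704) or 6 (-0.31, adjusted p 0.0665) and with either other scaling (-0.29 and -0.23). Slc25a37 was 0.61 higher (SE 0.13, adjusted p 8.46e-04), beside a median of 0.60 for the other chromosome 14 genes. Fth1 on 1427021_s_at was 0.28 higher (adjusted p 0.00884).

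Within the 12 knock-in arrays, the iron genes were also tested against the repeat number. A slope on the longer allele's repeats, per 100 repeats, was called for 0 of 13 in limma (1 at an unadjusted p under 0.05), where 0.0111% of all probe sets were called with a higher and 0.0334% with a lower slope (823 in all at an unadjusted p under 0.05). For Slc40a1 on 1417061_at the slope was 0.12 (adjusted p 0.999). A test for any difference among the 4 lines also called 0 of 13 (3 at an unadjusted p under 0.05) beside 0.167% of all probe sets. The adjusted p for Slc40a1 in that test was 0.255 on 1417061_at and 0.218 on 1448566_at, so the higher Q91 mean was not separated from the other lines.

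Other genes of iron metabolism were taken from lists of iron transport and its regulation, heme metabolism, and iron-sulfur cluster assembly, with the brightest probe set standing for a gene. Shifts shared by the genes of a chromosome, as given above for chromosomes 1 and 14, were not examined for the genes of these lists. The part of such shifts in the calls below was not tested. Of 27 iron transport genes, 13 were tested. In the knock-out 2 were higher and 1 lower (all genes: 7.55% and 8.80%), in Q20 and in Q111 1 higher and 1 lower (16.3% and 10.4%, and 16.4% and 11.1%), and in Q50 and Q91 0 by limma (3 in each at an unadjusted p under 0.05; 5.08% and 2.43%, and 13.4% and 11.3%). The median change of the list was 0.01 in the knock-out and -0.09 to 0.10 in the lines, against -0.02 and -0.01 to 0.03 over all genes. Genes of systemic iron control, among them Hamp (hepcidin), Hfe, Hjv and Tfr2, were below the filter, as were the ferroxidases Heph and Cp that act beside ferroportin.

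Slc39a14, a transporter that imports iron not bound to transferrin, was higher in the knock-out by 0.81 (8.39 to 9.20, adjusted p 8.07e-04), with every array above the controls. Steap3, the reductase that prepares endosomal iron for Slc11a2, was lower there (-1.12, adjusted p 0.00974) and in Q20 (-1.05, adjusted p 0.0270). Its means were 5.70 in controls, 4.58 in the knock-out and 4.64 in Q20. The lower means lay under the level of 5, so the changes are no measure of a fold, and the Q20 arrays overlapped the controls. The related importer Slc39a8 was higher in Q20 (3.18, adjusted p 0.0139) and Q111 (2.78, adjusted p 0.0279), though its arrays overlapped the controls in both. Ncoa4, the receptor that delivers ferritin to autophagy, was lower in Q111 (-0.35, adjusted p 0.0130).

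Of 23 heme genes, 19 were tested, and limma called 0 in the knock-out (2 at an unadjusted p under 0.05) and 0 in Q50 (5 at that level). Q20 had 2 higher and 3 lower, Q91 1 and 2, and Q111 2 and 3, with list medians of -0.08 to 0.08 over the 5 comparisons. Over all genes 16.3% were higher and 10.4% lower in Q20, 13.4% and 11.3% in Q91, and 16.4% and 11.1% in Q111, so the list's lower shares of 15.8%, 10.5% and 15.8% lay near that background. The porphyrin transporter Abcb6 was lower in Q20 (-1.21, adjusted p 0.00859) and Q111 (-0.89, adjusted p 0.0438). Bach1, the heme-sensing repressor, was higher in the same lines (0.95, adjusted p 0.0289, and 1.17, adjusted p 0.00807).

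Abcb10, a mitochondrial transporter that binds mitoferrin in red cell precursors, was lower in Q91 (-0.94, adjusted p 2.24e-05) and Q111 (-0.54, adjusted p 0.00334). The exporter Abcg2 was higher in Q91 (0.54, adjusted p 0.00966) and Q111 (0.44, adjusted p 0.0273).

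Of 23 genes of iron-sulfur cluster assembly, 18 were tested. Limma called 0 higher in each line, while 3 were lower in Q20, 1 in Q50, 5 in Q91 and 5 in Q111 (5, 8, 9 and 5 in either direction at an unadjusted p under 0.05). The lower members were 16.7%, 5.56%, 27.8% and 27.8% of the list, beside 10.4%, 2.43%, 11.3% and 11.1% of all genes, of which 16.3%, 5.08%, 13.4% and 16.4% were higher. The knock-out had 1 higher and 2 lower (all genes: 7.55% and 8.80%). The list's median was -0.07 in the knock-out, -0.13 in Q20, -0.04 in Q50, -0.30 in Q91 and -0.19 in Q111, beside all-gene medians between -0.02 and 0.03.

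Nfu1, which carries clusters to target proteins in mitochondria, was lower in the knock-out (-0.26, adjusted p 0.0202), Q91 (-0.57, adjusted p 1.43e-04) and Q111 (-0.59, adjusted p 9.11e-05). Nubp1, a scaffold of the cytosolic pathway, was lower in Q20 (-0.36, adjusted p 0.00827), Q91 (-0.37, adjusted p 0.00763) and Q111 (-0.45, adjusted p 0.00173). The mitochondrial scaffold Iscu was lower in Q111 (-0.56, adjusted p 0.00508) and Glrx5, which passes clusters on, in the knock-out (-0.25, adjusted p 0.0154).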

How the data were processed

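RNA of 24 samples was hybridised to 1-colour Affymetrix arrays. Per the submitters' processing notes, the authors' deposited log2 values were made with GCRMA, which subtracts background by probe sequence and equalises the arrays' distributions. This leaves dim probe sets with compressed values and no record of detection. Array medians of the deposited values still ran from 3.33 to 3.60. Quantile normalization of these values changed the share of probe sets called higher and lower in Q20 from 16.2% and 9.00% to 13.2% and 15.3%. The depth of an array has no counterpart in reads, and the number of arrays limits the precision.

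The 64 AFFX control features were left out. Of the other 45037 probe sets, 17980 (39.9%) reached a log2 level of 5 on at least 3 arrays and were fitted with limma 3.58.1 in R 4.3.3, with 1 mean per group and Benjamini-Hochberg adjustment at 0.05. A slope on repeats (per 100) and an F-test were fitted on the 12 knock-in arrays. The steps were tested on simulated data.

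The platform annotation names 1 gene for 34945 probe sets, several for 932 and none for 9160. Symbols were updated through a RefSeq table (GRCm38.p6), which matched 34754, and that table also gave each gene's chromosome. The probe set with the highest mean stood for a gene where 1 value was needed.

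The named genes are all single-gene probe sets of the 8 members, up to 4 genes per pathway list with the smallest p past the threshold, and the 5 genes most correlated with Slc40a1 and with Tfrc. Members and lists were chosen with earlier results of these data known. Alternatives were another filter or none, quantile normalization, median centring, replicate number as a block, a fit of the compared groups alone, the mean of a gene's tested probe sets, and each array left out. Replicate numbers were not taken as pairs.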

Additional observations from a re-analysis of the deposited data

Results flagged for a closer look

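Of 32 sets of 6 arrays examined (16 probe sets in control and in knock-out), 2 held an array far from the others, where chance gives about 1 in 20. Control replicate 4 read 6.01 on Slc25a37 against 6.59 to 6.88 on the other controls. Knock-out replicate 4 read 10.36 on the Tfrc probe set 1422967_a_at against 9.56 to 9.79 on the other knock-out arrays.

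With the brightest probe set standing for a gene, the knock-out and the lines differed in 4 genes when tested directly against each other with limma. The knock-out minus the mean of the 4 lines was 0.59 for Tfrc (adjusted p 7.39e-07), -0.50 for Slc11a2 (4.38e-04), -3.41 for Slc40a1 (1.04e-08) and 0.61 for Slc25a37 (8.46e-04). The Slc40a1 probe set had passed the filter only through the knock-in arrays, and its knock-out level was below 5. Fth1 differed on its other probe set, 1427021_s_at (0.28, adjusted p 0.00884).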

How the results depend on the processing

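The counts of called probe sets of the iron genes moved by over 1.5 times as follows, and the cause was not tested. In Q20 the 6 calls became 3 with a replicate block, 3 with only the 2 groups in the fit and 2 with replicates 4 to 6 of control and knock-out alone. In Q50 the 6 became 3 with the block, 2 with 2 groups, and 2 and 1 with replicates 1 to 3 and 4 to 6. In Q91 the 2 became 1 under the stricter filter (level 6). In Q111 the 5 became 3 with no filter, 3 with median centring, 2 with the block, and 2 and 1 with replicates 1 to 3 and 4 to 6. In the knock-out the 3 became 6 with the control features kept and 1 with replicates 1 to 3. The block gave 4 in the knock-out and 8 against the lines. Keeping the control features and splitting the replicates were chosen after seeing the data.

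Leaving out each array gave 3 to 4 calls in the knock-out, 3 to 5 in Q20, 2 to 6 in Q50, 2 in Q91, 1 to 5 in Q111, 8 to 9 against the lines, and 0 for the slope and the F-test. The mean of the tested probe sets turned the Q50 value of Tfrc to -0.10 (adjusted p 0.795); Q50 replicate 3 was low on 2 of the 3 probe sets averaged. Over all probe sets the block took the Q50 calls from 1438 to 595 and those of the F-test from 30 to 123. With no filter the F-test gave 14 and the slope 0 in place of 8. Dim signals limit Slc40a1, whose control values lie below the level of 5.

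Deviations of same-numbered arrays from their group means correlated from -0.41 to 0.46 over 48 pairs, and 18 were over 0.1. Among the knock-in lines this held for 2 of 6 pairs of replicate 1, 6 of 6 of replicate 2 and 5 of 6 of replicate 3, while the 6 pairs of control and knock-out ran from -0.41 to -0.26. The best match in another group had the array's own number for 9 of 24 arrays. With the replicate block the calls of Tfrc 1452661_at (adjusted p 0.0515 in Q20 and 0.109 in Q50), Aco1 1456728_x_at (0.0832 in Q20 and 0.0885 in Q111), Fth1 1427021_s_at (0.0794 in Q50 and 0.0601 in Q111), Fth1 1448771_a_at (0.0989 in Q20 and 0.0999 in Q50) and Slc40a1 1448566_at (0.0829 in Q111) were not made, nor that of Slc11a2 1426441_at between the knock-out and the lines (0.110), while Slc11a2 1452078_a_at was called in the knock-out (0.0372).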
